A study of Mus musculus with 2 samples.

Results

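Within orthotopic KPC pancreatic tumors of the mouse, a small set of tumor cells carried much Epcam RNA and little RNA of mucosal defense. These Epcam-high, mucosal-low cells numbered 631 of 24282 cell barcodes. Epcam is a surface adhesion protein of epithelial cells. The cells were chosen by measured values. Each had at least 3000 UMIs (unique molecular identifiers, each standing for 1 counted RNA molecule), at most 1 UMI of the leukocyte gene Ptprc, and Col1a1, Col1a2 and Col3a1 together under 0.3% of its UMIs. Each also had Krt8 plus Krt18 at or above 0.2%, Epcam at or above 0.04%, and Pigr, Ltf, Mmp7 and Dmbt1 together under 0.02% of its UMIs. The levels of these 11 genes are therefore a property of the choice, and every comparison below with cells outside it is a description without a test.

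The study profiled pancreatic tumors grown from KPC cells, cells of a widely used mouse model of pancreatic cancer, after DMSO vehicle or EIPA at 10 mg/kg. EIPA is an amiloride analog that blocks sodium-proton exchange and is used against macropinocytosis, the bulk uptake of fluid by cells. Each of the 2 samples was a pool of 4 flash-frozen tumors, so tumors cannot be told apart, and the labels used here do not name the KPC line or clone. Fixed cells were read with gene-specific probes. The barcodes carry a library number, 1 or 2, that no label ties to a treatment, so values are given by library and a ratio of library 2 over library 1 has no treatment direction. No sample was repeated, so no spread between replicates can be given and intervals cover counting error only.

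Epithelial cells of the pancreatic duct hold together through tight junctions, built from claudins, and through adherens junctions and desmosomes, built from cadherins. Their base is fixed to the basement membrane by laminins and integrins. Carcinoma cells can lose these features and take on mesenchymal genes such as Vim, a shift known as epithelial-mesenchymal transition. The transcription factors Zeb1, Zeb2 and Snai2, known for repressing epithelial genes, bind the E-box CACCTG, which reads CAGGTG on the opposite strand.

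Epcam and the claudin genes Cldn4 and Cldn6 mark these cells, and their promoters are shown because junction genes stand high together below. The windows run from 250 bases before to 50 bases after the RefSeq start and are printed 5′ to 3′ on the gene's strand, with the E-box in capitals. They lie at chr17:87635729-87636028 on the plus strand (Epcam), chr5:134946885-134947184 on the minus strand (Cldn4) and chr17:23679115-23679414 on the plus strand (Cldn6), from RefSeq, build GRCm38.p6.
Epcam: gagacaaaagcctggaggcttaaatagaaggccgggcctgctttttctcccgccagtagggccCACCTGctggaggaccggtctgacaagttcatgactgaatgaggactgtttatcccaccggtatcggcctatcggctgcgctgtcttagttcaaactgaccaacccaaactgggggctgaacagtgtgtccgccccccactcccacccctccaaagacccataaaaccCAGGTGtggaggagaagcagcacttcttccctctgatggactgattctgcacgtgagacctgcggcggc
Cldn4: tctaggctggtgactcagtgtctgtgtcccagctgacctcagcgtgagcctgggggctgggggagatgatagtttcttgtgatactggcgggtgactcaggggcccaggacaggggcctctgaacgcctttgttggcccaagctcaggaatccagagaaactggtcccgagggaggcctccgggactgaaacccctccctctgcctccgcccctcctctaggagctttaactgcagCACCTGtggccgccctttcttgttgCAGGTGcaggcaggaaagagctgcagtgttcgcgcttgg
Cldn6: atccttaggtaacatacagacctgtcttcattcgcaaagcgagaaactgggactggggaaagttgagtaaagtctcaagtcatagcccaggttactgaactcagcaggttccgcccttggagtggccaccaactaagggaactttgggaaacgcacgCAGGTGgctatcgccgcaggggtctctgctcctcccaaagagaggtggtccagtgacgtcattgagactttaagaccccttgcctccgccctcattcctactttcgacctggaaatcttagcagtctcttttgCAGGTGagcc
Each of these windows held the motif 2 times. Of 9 junction and epithelial genes looked up (Epcam, Cldn3, Cldn4, Cldn6, Cldn7, Krt7, Cdh1, Esrp1 and St14), 6 had a window in the table, and all 6 held it in at least 1 window. Cldn7 had 2 windows, and the one at chr11:69964529-69964828 held it 0 times. Of all 32851 windows, 20.2% held it on either strand, a share of windows that is not like a count of genes. These genes were picked after their levels were known, and a match of letters is not evidence of binding.

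In library 1 the chosen cells were 308 of 12337 barcodes, or 2.50% with a Clopper-Pearson 95% interval from 2.23 to 2.79. In library 2 they were 323 of 11945, or 2.70% with an interval from 2.42 to 3.01. The ratio of shares was 1.08, with an interval from 0.928 to 1.26 that includes 1. The makeup of the Epcam-high compartment differed more. All Epcam-high keratin-positive cells were 18.2% (17.3 to 19.2) and 13.5% (12.7 to 14.4) of the keratin-positive barcodes, and the mucosal-low cells were 26.5% (23.97 to 29.1) and 38.9% (35.6 to 42.3) of the Epcam-high ones. The other Epcam-high cells, with the 4 mucosal-defense genes at or above 0.02%, numbered 855 and 507. A shift toward mucosal-low cells in library 2 was also seen below the Epcam limit. There the mucosal-low cells were 41.3% and 63.2% of the keratin-positive barcodes, and the cells with mucosal-defense genes 40.4% and 23.3%. These intervals treat cells as independent draws from 1 pool, and spread between tumors was not measured.

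The libraries held 203459556 and 185474400 UMIs. The chosen cells gave 5565730 and 5828157 of them, with a median of 13563 and 13313 UMIs and 5144 and 5156 genes per cell, so depth was near equal. Their median mitochondrial share was 0.391% and 0.487%. The share of keratin-positive barcodes that met the choice was 6.31% and 5.61% between 3000 and 6000 UMIs, 6.36% and 7.40% up to 12000, 4.77% and 5.55% up to 24000, and 3.31% and 3.48% above that, lowest in the deepest barcodes. No barcode sequence of the chosen cells occurred in both libraries. The number was 2 for Epcam-high mucosal cells, 15 for mucosal-low cells under the Epcam limit and 225 over all barcodes. With so few chosen cells, the 0 does not set them apart. Doublets were left in. Of the chosen cells, 20 (6.49%) and 24 (7.43%) lay among the barcodes with the highest doublet scores, against 11.3% and 4.73% of the Epcam-high mucosal cells, and the part of doublets was not tested beyond leaving those barcodes out.

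The chosen cells were not free of mucosal-defense RNA. No UMI of Pigr, Ltf, Mmp7 or Dmbt1 was found in 87 of 308 (28.2%) and 117 of 323 (36.2%) of the cells, and the remainder held some under the limit. Dmbt1, a secreted scavenger protein of mucosal surfaces, stood at 98.8 and 71.2 CPM in the chosen cells, beside 106 and 74.4 in mucosal-low cells with Epcam under 0.04%, called Epcam-lower cells here. Its level in the Epcam-high mucosal cells was 3768 and 2945 CPM. Here CPM is the number of UMIs of a gene per 1000000 UMIs of the pooled cells of a group and library.

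Epcam itself, fixed by the choice, stood at 1077 and 1023 CPM, beside 1228 and 1147 in Epcam-high mucosal cells. The limits cut through a continuum. Of cells just inside the Epcam limit, from 0.04 to 0.05%, there were 35 and 44, with Cldn7 at 191 and 229 CPM. The 66 and 61 cells just outside, from 0.03 to 0.04%, had 157 and 134 CPM. Of cells just inside the mucosal limit, from 0.01 to 0.02%, there were 157 and 103, with Lama3 at 554 and 553 CPM, and the 126 and 62 just outside, from 0.02 to 0.03%, had 432 and 274 CPM.

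Ductal identity genes that the choice did not use were present. Krt7, a keratin of duct epithelium, stood at 2205 and 2894 CPM, Krt19 at 2869 and 2911, and Cdh1, the cadherin of adherens junctions, at 1211 and 873. Markers of most other cell types were low, but the mesothelial list was not. Its 7 genes summed to 4148 and 4446 CPM, beside 4626 and 5003 in Epcam-high mucosal cells and 2137 and 2100.5 in Epcam-lower cells. Only 2 of the 7 reached 20 CPM in the chosen cells, and 2 were at 0. The 13 fibroblast genes summed to 327 and 275 CPM, against 5757 and 4538 in barcodes rich in collagen, and none was at 0. The 10 macrophage genes summed to 215 and 236 CPM, against 2003 and 2177 in barcodes with 2 or more Ptprc UMIs, and none was at 0. The 8 T and NK genes summed to 4.67 and 21.3 CPM and the 6 neutrophil genes to 13.5 and 22.6, with 1 of the neutrophil genes at 0. The 10 acinar genes summed to 15.3 and 13.6 CPM with 4 at 0, and the 8 islet genes to 4.67 and 2.57 with 3 at 0. The 8 endothelial genes summed to 236 and 249 CPM, beside 286 and 232 in Epcam-lower cells, and none was at 0. The part of these other-cell genes in the results below was not tested.

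The claudins set the cells apart from Epcam-lower tumor cells. Cldn7, a claudin of simple epithelia, stood at 375 CPM (exact Poisson 95% interval 359 to 391) in library 1 and 383 (367 to 399) in library 2, against 25.4 and 16.7 in Epcam-lower cells. Cldn6, a claudin known from embryonic epithelia, stood at 665 (644 to 687) and 634 (614 to 655), against 78.1 and 55.5. Cldn4, a barrier-tightening claudin, stood at 294 (280 to 309) and 186 (175 to 197), against 14.8 and 9.51. All 3 were higher in both libraries, by 14.8- and 22.98-fold for Cldn7, 8.52- and 11.4-fold for Cldn6, and 19.9- and 19.6-fold for Cldn4. Cldn3, another barrier claudin, stood at 125 and 196 CPM against 4.48 and 12.9. Shares of Epcam-lower cells with Cldn3, Cldn4 or Cldn7 lay near or under those of immune barcodes, as given below, which limits these fold sizes.

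Against the Epcam-high mucosal cells the claudins divided. Cldn4 was at 113 and 68.7 CPM there, and Cldn6 at 377 and 294, both below the mucosal-low cells. Cldn7 was at 449 and 450 CPM, slightly above them, and Cldn3 at 119 and 183, close to them. Cldn2, a pore-forming claudin, was lower in the mucosal-low cells, at 511 and 432 CPM against 833 and 703. Of 22 tight junction genes, 14 had at least 50 CPM in 1 of the cell groups of each library; 2 counted as higher (Cldn4 and Cldn6) and 2 as lower (Cldn2 and Tjp3, a junction scaffold).

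**Figure D1:**
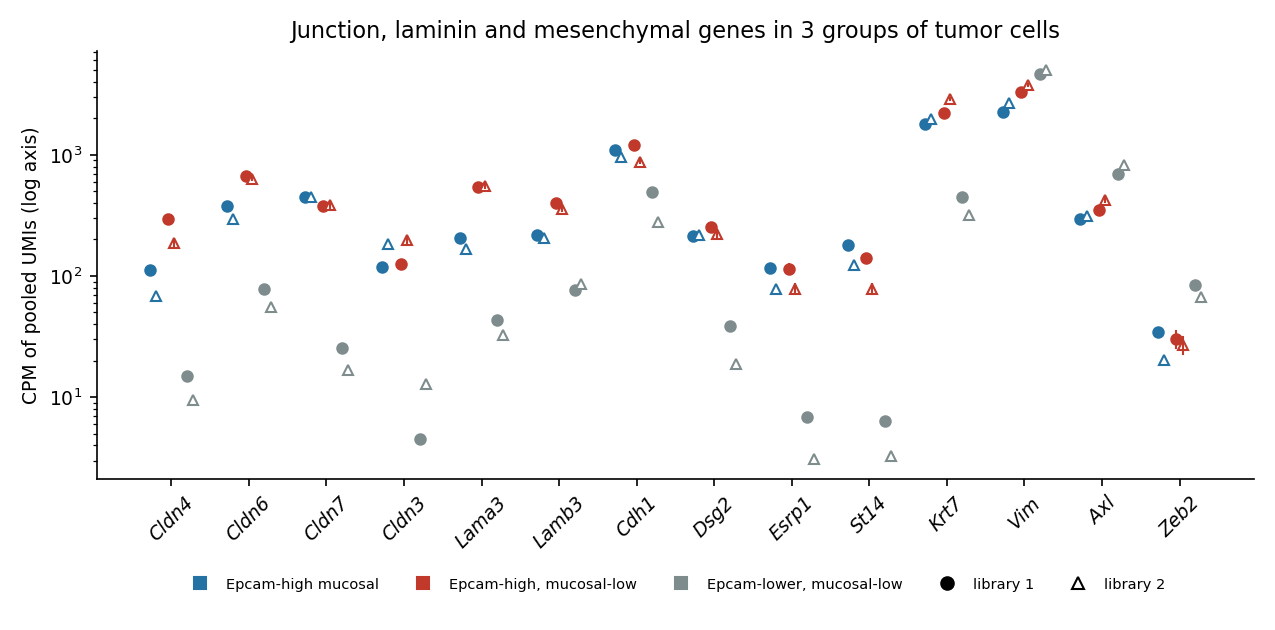
Levels of junction, laminin and mesenchymal genes in CPM of pooled UMIs on a log axis, for Epcam-high mucosal cells (blue), Epcam-high, mucosal-low cells (red) and Epcam-lower, mucosal-low cells (gray). Circles are library 1, open triangles library 2, and bars on the red symbols exact Poisson 95% intervals. Lama3 and Lamb3 are highest in the red symbols, and Vim and Axl lie between blue and gray.

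A gene counted as higher or lower in a comparison of cell groups when it had at least 50 CPM in 1 group of each library, Poisson intervals apart, and a ratio of CPM plus 1 of at least 1.5-fold in the same direction in both libraries. The 11 genes of the choice were left out. Against Epcam-lower cells, 310 of 5400 genes (5.74%) counted as higher and 182 (3.37%) as lower. Against Epcam-high mucosal cells, 94 of 5432 (1.73%) counted as higher and 192 (3.53%) as lower. Both comparisons use the same chosen cells, so their values are set side by side. A gene that counted in both did not pass independent comparisons, and the number of such genes is not read. The median log2 ratio over all genes with at least 20 CPM lay between -0.03 and 0.02 in these comparisons.

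Junction genes as a class stood high against Epcam-lower cells. Of 13 tight junction genes tested, out of 22 listed, 9 counted as higher and 0 as lower, with list medians of 2.05 and 2.11 on the log2 scale. Besides the claudins these included Cgn, a scaffold (253 and 255 CPM against 79.6 and 62.1), and Crb3, a polarity protein (160 and 131 against 48.2 and 28.8). Of 12 adherens junction and desmosome genes, 8 counted as higher and 0 as lower. The desmosomal cadherin Dsg2 stood at 254 and 221 CPM against 38.7 and 18.7, and desmoplakin, Dsp, at 394 and 319 against 145 and 87.1. The general catenin and scaffold genes did not pass, with Ctnnb1 at 1250.2 and 1015 CPM against 931 and 782 and Tjp1 at 213 and 172 against 161 and 123.

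The highest ratios over Epcam-lower cells belonged to further epithelial genes. St14, the membrane serine protease matriptase, stood at 141 and 77.9 CPM against 6.33 and 3.30. Esrp1, an epithelial splicing regulator, stood at 115 and 78.8 against 6.88 and 3.07. Wnt7a, a secreted Wnt ligand, stood at 114 and 138 against 10.7 and 8.57, and Ephb2, an ephrin receptor, at 57.9 and 53.2 against 5.35 and 3.07. The potassium channel gene Kcnk1 and the membrane mucin Muc4 completed the 10 highest with Cldn3, Cldn4, Cldn7 and Lama3; 3 cells held 47.6% of the Muc4 UMIs of library 1.

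A few laminin genes were higher than in both other cell groups. Lama3 and Lamb3 encode chains of the laminin that anchors hemidesmosomes. Lama3 stood at 541 (522 to 561) and 551 (532 to 570) CPM, against 207 and 167 in Epcam-high mucosal cells and 43.4 and 32.5 in Epcam-lower cells. Lamb3 stood at 403 and 358 CPM, against 217 and 207 and against 76.1 and 86.2. Both counted as higher in both comparisons, which share the chosen cells and are not independent. Other laminin genes did not pass: Lama5 stood at 690 and 836 CPM, against 598 and 707 and against 640 and 780, and Lamc1 at 143 and 136, against 168 and 162 and against 163 and 163.

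A few cells weighed on Lama3. In library 1, 3 cells held 29.7% of its UMIs, and 16.04% in library 2. Without them the ratio over Epcam-high mucosal cells was 1.88- and 2.82-fold in place of 2.61- and 3.29-fold. The same step left Lamb3 at 1.52- and 1.63-fold. Of 14 hemidesmosome and laminin genes tested, 3 counted as higher and 0 as lower against mucosal cells. Against Epcam-lower cells 4 counted as higher, Itgb4 among them (831 and 1023 CPM against 526 and 528), and 1 as lower, the linker gene Dst (286 and 265 against 518 and 445).

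Shares of cells with a UMI were compared after each cell was thinned to 3000 UMIs. Cldn6 was then found in 67.2% and 68.7% of the chosen cells, 51.8% and 44.8% of Epcam-high mucosal cells and 13.8% and 11.6% of Epcam-lower cells. Immune barcodes with keratin under 0.2%, which should lack the gene, gave 8.21% and 9.39% at median depths of 10051 and 8329.5 UMIs. Unthinned, the shares were 87.7% and 89.5% in the chosen cells and 26.1% and 25.6% in those immune barcodes. For Cldn4 the thinned shares were 35.7% and 28.2% in the chosen cells and 2.93% and 2.35% in immune barcodes, and unthinned 58.4% and 51.7% against 14.1% and 10.8%. In Epcam-lower cells Cldn4 was found in 3.87% and 2.56% after thinning, near the level of the immune barcodes.

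The 4 markers were unevenly shared among the cells. After thinning, Cldn4, Cldn6, Cldn7 and Lama3 were all found in 9.42% (29 of 308, 6.40 to 13.2) and 10.8% (35 of 323, 7.66 to 14.7) of the chosen cells. The same was true of 4.33% and 2.37% of Epcam-high mucosal cells, and of 0 of 341 and 0 of 426 immune barcodes, which allows up to 1.08% and 0.862%. None of the 4 was found in 6.49% and 11.1% of the chosen cells. Without thinning, the median cell had Cldn6 at 481 and 504 CPM of its own UMIs, with a 90th percentile of 1441 and 1383, whereas the median for Cldn4 was 73.7 and 29.7 with a 90th percentile of 799 and 655.

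Mucosal-low cells divided by their Epcam share showed graded levels of some genes. From cells below 0.005% Epcam, through 0.005 to 0.04%, and then within the chosen cells through 0.04 to 0.06%, 0.06 to 0.1%, 0.1 to 0.2% and 0.2% or more, Cldn7 in library 1 stood at 11.8, 56.5, 267, 272, 474 and 667 CPM. In library 2 it stood at 10.2, 43.4, 232, 314, 534 and 670. Levels of Cldn7 thus went up along the bands in both libraries. Esrp1 stood at 3.76, 14.01, 61.9, 92.9, 160 and 186 CPM in library 1 and at 1.90, 7.94, 41.1, 66.0, 118 and 117 in library 2. Cldn6 and Cldn4 did not go up at every step within the chosen cells. There Cldn6 stood at 532, 506, 901 and 598 CPM in library 1 and 397, 623, 818 and 792 in library 2. Cldn4 stood at 154, 137, 382 and 942 CPM in library 1 and 153, 134, 252 and 293 in library 2.

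Vim went the other way, at 4690, 4408, 4069, 3541, 2928 and 1631 CPM in library 1 and 5137, 4358, 4179, 3670, 3715 and 2884 in library 2, where 1 step ran against the others. The step at the Epcam limit was small for Vim and large for Trf, the iron carrier transferrin, which went from 1245 to 413 CPM and from 1133 to 671 between the bands either side of it. The top band held 30 and 29 cells. In it Lama3 stood at 2543 CPM in library 1 and 1159 in library 2, while in the band before it the order of the libraries was the reverse, 347 and 854 CPM.

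**Figure D2:**
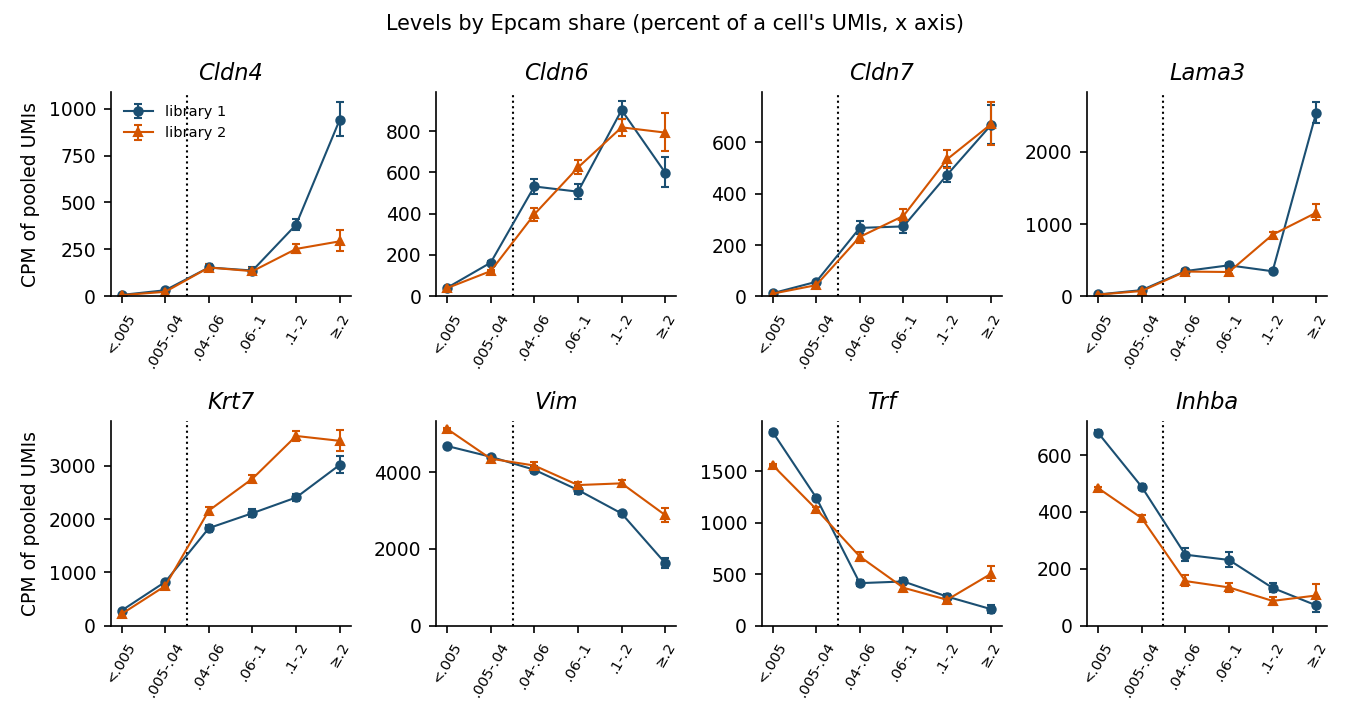
CPM of pooled UMIs for 8 genes in mucosal-low keratin-positive cells divided by the Epcam share of their UMIs, with exact Poisson 95% intervals; the dotted line is the limit of 0.04%. Cldn7 goes up along the bands in library 1 (circles) and library 2 (triangles), Vim is lower in the top band than in the first, and Lama3 reaches 2543 CPM in the top band of library 1.

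Mesenchymal genes were lower than in Epcam-lower cells yet not absent. Of 9 such genes tested, 1 counted as higher and 5 as lower: Axl, a receptor kinase (349 and 427 CPM against 693 and 824), Itga5, the fibronectin receptor chain (74.4 and 86.8 against 170 and 222), Zeb2 (30.0 and 26.9 against 84.5 and 67.0), Sparc and S100a4. Vim stood at 3327 and 3770 CPM, between 2234 and 2669 in Epcam-high mucosal cells and 4604 and 4986 in Epcam-lower cells, and did not pass the 1.5-fold limit against either. Zeb1 stood at 35.2 and 38.6 CPM against 55.0 and 55.9 in Epcam-lower cells and did not pass.

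The genes lowest against Epcam-lower cells included secreted factors. Grem1, a BMP antagonist, stood at 23.2 and 18.0 CPM against 133 and 123. Stc1, the hormone stanniocalcin, stood at 65.2 and 63.7 against 252 and 337, and Mmp13, a collagenase, at 165 and 96.1 against 570 and 611. Trf stood at 349 and 421 CPM against 1690.3 and 1478. The adhesion gene Selp, the guidance factor Sema3a, the gel-forming mucin Muc5b, Siglec15, Disp2 and Adgra2 made up the 10 lowest.

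Signalling genes lay on both sides of the comparison with Epcam-lower cells. Of 11 Wnt, Hedgehog and Notch genes, 5 counted as higher, among them Wnt7b (232 and 231 CPM against 76.6 and 71.3) and Rnf43, a negative regulator of Wnt receptors (53.7 and 51.3 against 15.0 and 8.62). The Notch ligand Dll4 counted as lower, at 86.8 and 92.7 CPM against 162 and 243. Of 8 genes of the EGF family, the receptors Erbb2 and Erbb3 counted as higher and the ligands Hbegf (217 and 225 CPM against 461 and 426) and Btc as lower. Of 18 MAPK target genes, 1 counted as higher and 2 as lower: the feedback phosphatase Dusp6 (486 and 505 against 753 and 827) and Spred1.

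Against Epcam-high mucosal cells the low side held many secretory and gastrointestinal genes. Tff2, a trefoil peptide of gastric mucus, stood at 126 and 169 CPM against 1255 and 2122, near the 194 and 173 of Epcam-lower cells. Spink4 stood at 8.80 and 9.78 CPM against 139 and 219, and Agr2, a folding enzyme of mucus cells, at 6.65 and 13.0 against 125 and 104. Prap1, Gsta3, Gkn3, Sptssb, Ern2, Ces2g and Otop3 completed the 10 lowest. Of 18 genes of the classical pancreatic cancer class, 10 counted as lower and 0 as higher against mucosal cells, with medians of -0.72 and -1.35 on the log2 scale. Against Epcam-lower cells 8 of 14 counted as higher and 0 as lower, among them Lgals4, a galectin (789 and 877 CPM against 200 and 117), and Ctse, a protease (805 and 578 against 500 and 296).

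Antigen presentation was also lower than in mucosal cells. All 4 MHC class II genes tested counted as lower, with the invariant chain Cd74 at 414 and 784 CPM against 1277 and 2319. Of 10 MHC class I genes, 4 counted as lower, the peptide transporters Tap1 and Tap2 and the proteasome genes Psmb8 and Psmb10, and 0 as higher. H2-K1, a class I heavy chain, stood at 886 and 1193 CPM against 1161 and 2050 and did not pass. Of 4 complement genes, C3, C4b and Cfi counted as lower.

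Some hypoxia and glucose genes stood higher than in mucosal cells. Vegfa, the endothelial growth factor, stood at 1428 and 1313 CPM against 708 and 488, and against 910 and 773 in Epcam-lower cells. The glucose transporter Slc2a1 stood at 543 and 567 CPM against 298 and 247, and the lactate exporter Slc16a3 at 285 and 294 against 157 and 134. Of 21 hypoxia and glycolysis genes tested, 6 counted as higher, these 3 with Pfkp, Ero1l and Ankrd37, and 0 as lower, with medians of 0.45 and 0.61. Other members, such as Ldha (818 and 870 CPM against 642 and 652), did not pass.

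The 10 highest ratios over mucosal cells included Aqp3, a water and glycerol channel, at 144 and 82.2 CPM against 35.6 and 19.6, and Acan, the matrix proteoglycan aggrecan, at 356 and 550 against 131 and 154. Cdkn1a, the p53 target that halts the cell cycle, stood at 193 and 198 CPM against 81.9 and 59.0, and against 118 and 132 in Epcam-lower cells. Kctd11, Tmem95, Ctla2a and Chrna1 were also among them, beside Lama3 and Cldn4. In Epcam-lower cells Acan stood at 244 and 415 CPM and did not pass.

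**Figure D3:**
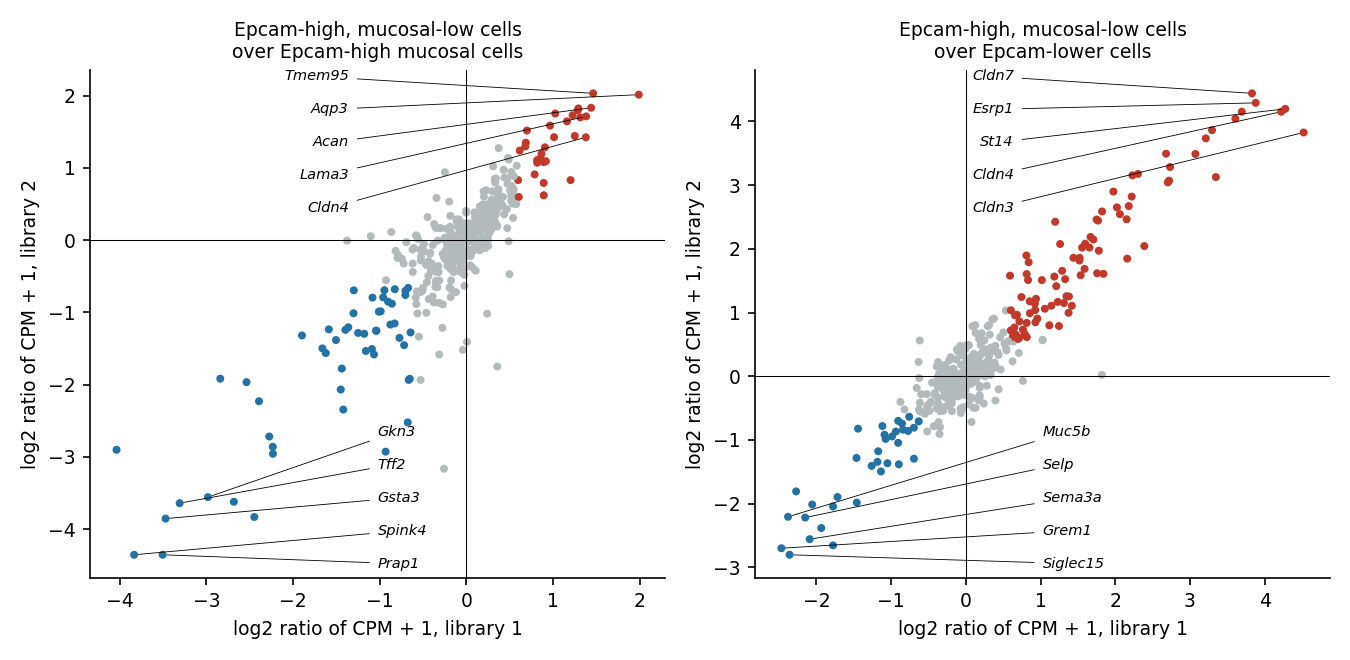
Log2 ratios of CPM plus 1 in Epcam-high, mucosal-low cells over Epcam-high mucosal cells (left) and over Epcam-lower cells (right), library 1 on the x axis and library 2 on the y axis. Points are genes of the lists, named genes and genes that differed between libraries, with at least 50 CPM; red counted as higher, blue as lower, gray as neither. Tff2 and Spink4 lie low on the left, and Cldn7 and Esrp1 high on the right.

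Within the chosen cells, library 2 over library 1 gave few genes past the limits. With at least 50 CPM in 1 library, intervals apart and a 1.5-fold ratio, 73 of 5575 genes (1.31%) counted as higher in library 2 and 52 (0.933%) as lower. Intervals alone were apart for 910 genes (16.3%) upward and 774 (13.9%) downward. The median log2 ratio over all genes with at least 20 CPM was 0.01. Of the markers, Cldn6, Cldn7 and Lama3 did not pass, with log2 ratios of -0.07, 0.03 and 0.03. Cldn4 counted as lower in library 2, with a ratio of -0.66, and Cldn3 as higher, with 0.65.

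Several MHC and interferon genes counted as higher in library 2. Cd74 had a log2 ratio of 0.92, and all 5 MHC class II genes with at least 20 CPM lay above 0, with a median of 0.86 and 3 counted as higher. That median was 0.20 where the choice was made on cells thinned to 3000 UMIs and 0.40 with mucosal-defense genes under 0.01%. All 11 MHC class I genes lay above 0, with a median of 0.53 that was 0.35 in thinned cells, and Tap1, Tap2 and Nlrc5, the class I activator, counted as higher. Tap1 stood at 34.7 and 78.9 CPM in the chosen cells, 87.0 and 160 in Epcam-high mucosal cells and 24.9 and 59.0 in Epcam-lower cells, higher in library 2 in each. All barcodes with 2 or more Ptprc UMIs, whatever their keratin share, had 73.9 and 158 CPM of Tap1. For Cd74, which leukocytes carry in bulk, they had 5771 and 7569.

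All 23 interferon response genes with at least 20 CPM lay above 0, with a median of 0.87 that was 0.58 in thinned cells, and 5 counted as higher, among them Gbp2, Irf7, Oasl2 and Parp14. Irf7, a transcription factor of the interferon response, stood at 26.1 and 56.8 CPM, with 20.0% and 32.0% of its UMIs in 3 cells. The largest ratios of the list rested on a few cells. For Rsad2 and Ifit3, 2 antiviral genes, 3 cells of library 2 held 87.8% and 83.2% of the UMIs, and for the chemokine Cxcl10 83.8%. In Epcam-lower cells Irf7 stood at 17.1 and 13.1 CPM, and in Epcam-high mucosal cells at 45.3 and 69.4.

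Of 18 genes of G2 and M phase, 17 lay above 0 in library 2 with a median of 0.75, and 2 counted as higher. That median was 0.32 in thinned cells, 0.49 where the choice was made on thinned cells and 1.24 with mucosal-defense genes under 0.01%. Ube2c, a ubiquitin enzyme of mitotic exit (60.4 and 114 CPM), and Top2a, a topoisomerase (51.7 and 82.0), were these, with 36.9% and 38.5% of their UMIs in 3 cells of library 2. The S phase list had 9 of 15 genes above 0 and a median of 0.14, and Rrm2 and Uhrf1 counted as higher. Replication histone genes (Hist1h1b, Hist1h2ap, Hist1h2ae and Hist1h1a) were among the 12 highest named genes, though 3 cells held 35.8 to 46.2% of their UMIs in library 2. After thinning, a UMI of Mki67 or Top2a was found in 12.7% (9.16 to 16.9) and 16.4% (12.5 to 20.9) of the cells, intervals that overlap, against 11.05% and 22.3% of Epcam-lower cells.

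The other named genes of the high side were Il5ra, a cytokine receptor chain (30.0 and 95.6 CPM), the metallothionein Mt2, C3 and Cdhr5, an apical cadherin. Il5ra was also higher in library 2 in Epcam-high mucosal cells (18.1 and 54.6) and Epcam-lower cells (3.87 and 16.6). The collagen gene Col1a2, which belongs to the choice and was capped by it, stood at 45.3 and 74.1 CPM and is among the genes counted as higher. Collagen-rich barcodes were 3.37% and 3.94% of each library.

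Some genes of the classical and mucin lists stood lower in library 2. Gkn1, a gastrokine of the stomach surface, stood at 210 (198 to 222) and 66.9 (60.4 to 73.9) CPM, and Tff1, a trefoil peptide, at 607 (587 to 628) and 288 (274 to 302). Of 17 classical genes, 4 counted as lower (Gkn1, Gkn2, Tff1 and Vsig1) and 0 as higher, with a median of -0.36 that was 0 without the filter on low genes. Tff2, of the same list, lay the other way, at 126 and 169 CPM, and did not pass, and Agr2, at 6.65 and 13.0 CPM, was under the limit of 50 CPM. The mucins Muc4 (115 and 54.4) and Muc5ac (189 and 90.8) counted as lower, while Muc1 (369 and 390) did not pass. Of the Muc5ac UMIs of library 2, 67.7% lay in 3 cells. For Muc4, 3 cells held much of the UMIs of library 1, the higher side of its ratio, as given above. Muc4 was not among the lowest library ratios that met the rules for naming, which included 1.5-fold without the top 3 cells. Which of these rules Muc4 missed is not given. The median of the 4 mucins, -1.06, was -0.50 with mucosal-defense genes under 0.01% and -0.03 without the filter on low genes. Bpifb1, a secreted airway and gut defense protein, had the lowest ratio, -2.45, at 75.6 and 13.0 CPM.

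The remaining low genes were Mucl3, Ptgs2, which makes prostaglandins (52.5 and 18.4 CPM), Bcas1, Nrk, Tesc, Hdac9 and Plekhs1. Among the other lists, the 4 complement genes had a median of 0.42 and the 5 normal duct and tuft genes 0.39, with C3 and Cftr, the chloride channel of ducts, counted as higher. With mucosal-defense genes under 0.01% these medians were 0.0057 and 0.041. The 24 hypoxia genes had a median of -0.03, the 20 cholesterol synthesis genes -0.03 and the 18 MAPK targets 0.08. The 25 macropinocytosis and proton exchange genes had a median of 0.01 with 0 counted in either direction; Sdc1, a cell-surface heparan sulfate proteoglycan and the most abundant of them, stood at 2359 and 1923 CPM.

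**Figure D4:**
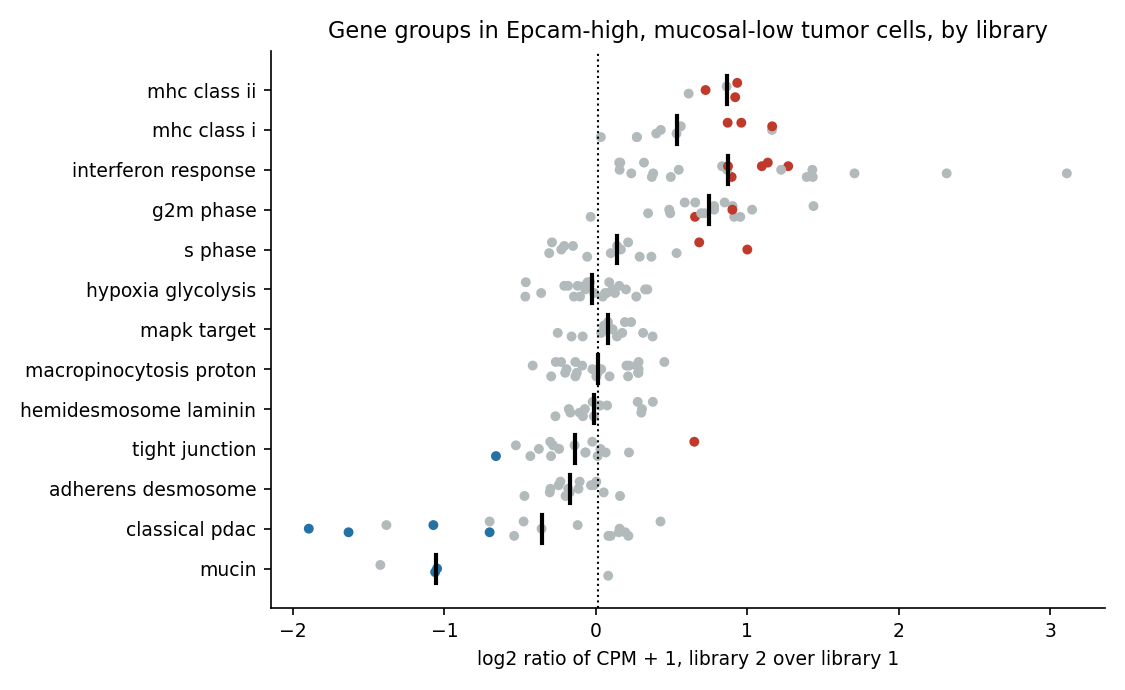
Log2 ratio of CPM plus 1, library 2 over library 1, for genes with at least 20 CPM in 13 lists; each point is a gene, red counted as higher, blue as lower, gray as neither. Black bars are list medians, and the dotted line is the median of all genes, 0.01. MHC class II lies at a median of 0.86 and mucins at -1.06.

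Some genes varied far beyond counting error between cells of the same library. After thinning, the variance over the mean was 1.06 in both libraries for the median of 8283 genes, where Poisson counting gives a value near 1. It was 22.8 and 51.9 for Cd74, 23.7 and 7.53 for Tff1 and 8.62 and 6.56 for Lama3. Clu, the secreted chaperone clusterin, had 24.1 and 24.95 at 25209 and 19785 CPM. The rule for this ranking was set after the data were seen.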

How the data were processed

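The deposited values were raw UMI counts per gene and barcode from probe-based single-cell libraries of 2 pooled tumor samples, which the authors produced using Cell Ranger 8.0.0 and mm10 (per the submitters' processing notes); 1 matrix held 19059 genes and 24282 barcodes. The number after the barcode hyphen separated 2 libraries. The cells, markers and gene lists were chosen with earlier results of these data known. UMIs were summed per cell group and library, scaled to CPM, and given exact Poisson 95% intervals; log2 ratios add 1 CPM. Shares have exact Clopper-Pearson intervals. No test was run. Lists used members with at least 20 CPM and needed 3; of 644 listed genes, 8 were not matched by symbol. Only genes passing these limits enter list counts.

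Named genes were the markers and the most abundant and counted list members. Added to them were the 12 highest and 12 lowest library ratios and the 10 highest and lowest ratios over each cell group. Genes of the library ratios had to keep 1.5-fold without the top 3 cells per library. Their level also had to be 0.2 times or more of that in all barcodes with 2 or more Ptprc UMIs and in collagen-rich barcodes. Comparisons with cell groups took the library nearer to 1. Thinning drew 3000 UMIs per cell (seed 1). Doublet scores came from Scrublet (scanpy 1.11.5), the top ones taken at 0.8% per 1000 barcodes. Tools were Python 3.11.15, numpy 2.4.6, scipy 1.17.1, pandas 2.3.3, matplotlib 3.10.9 and, for TMM factors, edgeR 4.0.16 in R 4.3.3. Depth limits low genes: 1 UMI per cell in a median cell exceeds 50 CPM. Some genes that met these rules are not reported here.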

Additional observations from a re-analysis of the deposited data

Results flagged for a closer look

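For 3 genes the library ratio of the Epcam-high, mucosal-low cells ran opposite to that of another tumor cell group, both past the limits; the difference was not tested for any of them. For Gkn2, a gastrokine, the log2 ratio minus that in Epcam-high mucosal cells was -2.90: it stood at 84.4 and 21.96 CPM in the former and 101 and 205 in the latter, where 3 cells held 32.7% and 43.1% of its UMIs. For Tff1 the difference was -1.99, with 607 and 288 CPM against 1159 and 2196. For Aqp3 the difference from Epcam-lower cells was -1.80, with 144 and 82.2 CPM against 40.1 and 81.0.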

How the results depend on the processing

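No paired analysis was possible because each library is 1 pool and no replicate exists. Of 78 values of the 7 main results under alternatives, 68 held within the set limits. For gene counts this compares how many genes counted, not which ones. Of the 73 higher and 52 lower library genes, 37 and 32 also counted in thinned cells. Where the choice was made on thinned cells, 40 and 33 of them counted. Without the filter on low genes, counts were 357 higher and 227 lower between libraries, 193 and 571 against mucosal cells, and 957 and 422 against Epcam-lower cells. Mucosal genes under 0.01% gave 123 genes higher in library 2 and a share ratio of 1.505. Thinned cells gave 93 genes lower in library 2, and leaving out the top doublet scores gave 142 higher than in mucosal cells. Among list medians beyond 0.3 (log2) and the named library genes, 3 changed sign: Hist1h1a to -0.12 in thinned cells, Mucl3 to 0.36 with mucosal genes under 0.01%, and the normal duct and tuft list to -0.076 without the filter. Smaller list medians crossed 0 too, among them macrophage (0.24, down to -0.42), mucosal defense (-0.24 to 0.15 without the filter), NF-kB and chemokines (0.10, down to -0.13), S phase (0.14 to -0.071), hypoxia (-0.025, up to 0.11) and cholesterol synthesis (-0.030, up to 0.11). Causes were not tested. The choice itself depends on depth: applied to cells thinned to 3000 UMIs it took 297 and 315 cells, of which 167 and 204 were shared. TMM and median-of-ratios factors lay between 0.984 and 1.02.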
